A study of Saccharomyces cerevisiae with 12 samples.

Results

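The genes described here make amino acids in budding yeast, Saccharomyces cerevisiae. They are 51 genes chosen by their systematic names, 50 for enzymes, subunits and a carrier of amino acid biosynthesis and 1 for GCN4, the transcription activator of many of these genes. The deposited table lists 6212 genes, of which 5857 carried a value on at least 1 array. All 51 genes were in it, and 42 of them carried a value on every array. They were grouped by the amino acid they lead to: 8 for arginine, 4 for histidine, 5 for serine and asparagine, 10 for leucine, isoleucine and valine, 7 for lysine, 5 for threonine, 8 for the aromatic amino acids, 3 for glutamate and glutamine, and GCN4. The rule uses names and no measured value.

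Transcripts were compared on 12 arrays with 2 dyes, each of which set a treated culture's RNA against that of an untreated or mock-treated culture with the same genotype. In the alkaline pH experiment, wild type cells and snf1::KanMX cells of strain DBY4741, growing in YPD at 28 °C, were given 16 mM KOH, so that the medium reached pH 8.0, and their controls 16 mM KCl at about pH 5.5, each for 10 min. There were 4 such arrays per genotype. In the low glucose experiment, wild type cells and cells labelled snf1 mutant of strain DBY746 were washed and moved to fresh YP medium with 0.05% or with 2% glucose for 15 min, with 2 arrays per genotype. The 2 experiments therefore differed in strain and time as well as in the stress. The labels do not give the allele of the low glucose mutant. In the snf1 cultures both the treated and the control cells carried the mutation of SNF1, the gene of the yeast AMP-activated protein kinase, which cells need to use carbon sources other than glucose. The genotype field of the first snf1 array at alkaline pH reads snf11::KanMX, while its title says snf1. SNF1's own ratio compares mutant with mutant and so cannot check the genotype.

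Yeast makes all the amino acids it needs, and the enzymes of most of these pathways are controlled together at the level of transcription. When cells lack an amino acid or are otherwise stressed, the kinase Gcn2 slows translation in general but lets more Gcn4 protein be made from GCN4 RNA, and Gcn4 then activates genes of nearly every pathway. Pathways also have activators of their own, such as Leu3 for leucine and Lys14 for lysine, and repressors such as the Arg80 complex for arginine.

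Each value is a log2 ratio, treated over control, so that 1 is a doubling and -1 a halving. No source used here gives the base of the logarithm, and the direction follows the order of the sample titles and is therefore likely, not stated. In a whole culture, fewer cells with an RNA and less of it per cell cannot be told apart. A gene was called higher or lower where limma's p-value, adjusted by Benjamini-Hochberg over all genes tested, was under 0.05. Errors after a mean are SDs over arrays, and those after a fitted difference are standard errors. Between 4056 and 5597 genes had a value on an array. Precision is limited by the number of arrays. Nothing in the labels says that the arrays of a group came from separate cultures, so p-values measure the spread between these arrays, which may be technical.

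The snf1 arrays at alkaline pH stood apart in consecutive pairs of opposite dye. Over all genes, snf1 arrays 1 and 2 correlated with each other at 0.901 and arrays 3 and 4 at 0.837, but across these pairs the coefficients were 0.683 to 0.742. Arrays 3 and 4 of snf1 correlated better with the 4 wild type arrays, at 0.75 to 0.813, than with snf1 arrays 1 and 2. Arrays 1 and 2 of snf1 correlated with the wild type arrays at 0.725 to 0.778 and 0.647 to 0.791. With snf1 arrays 3 and 4 they correlated at 0.739 and 0.742 and at 0.683 and 0.717. Whether the labels of either snf1 pair are right was not tested, and this bears on every snf1 mean and genotype difference at alkaline pH. Among the wild type arrays the coefficients were 0.807 to 0.936, with arrays 3 and 4 the most alike and arrays 1 and 2 at 0.845. The labels do not say whether consecutive arrays share RNA. Results for snf1 at alkaline pH are therefore given with all 4 arrays and without either pair. The values of 50 of the genes are drawn in the map of all arrays.

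**Figure D1:**
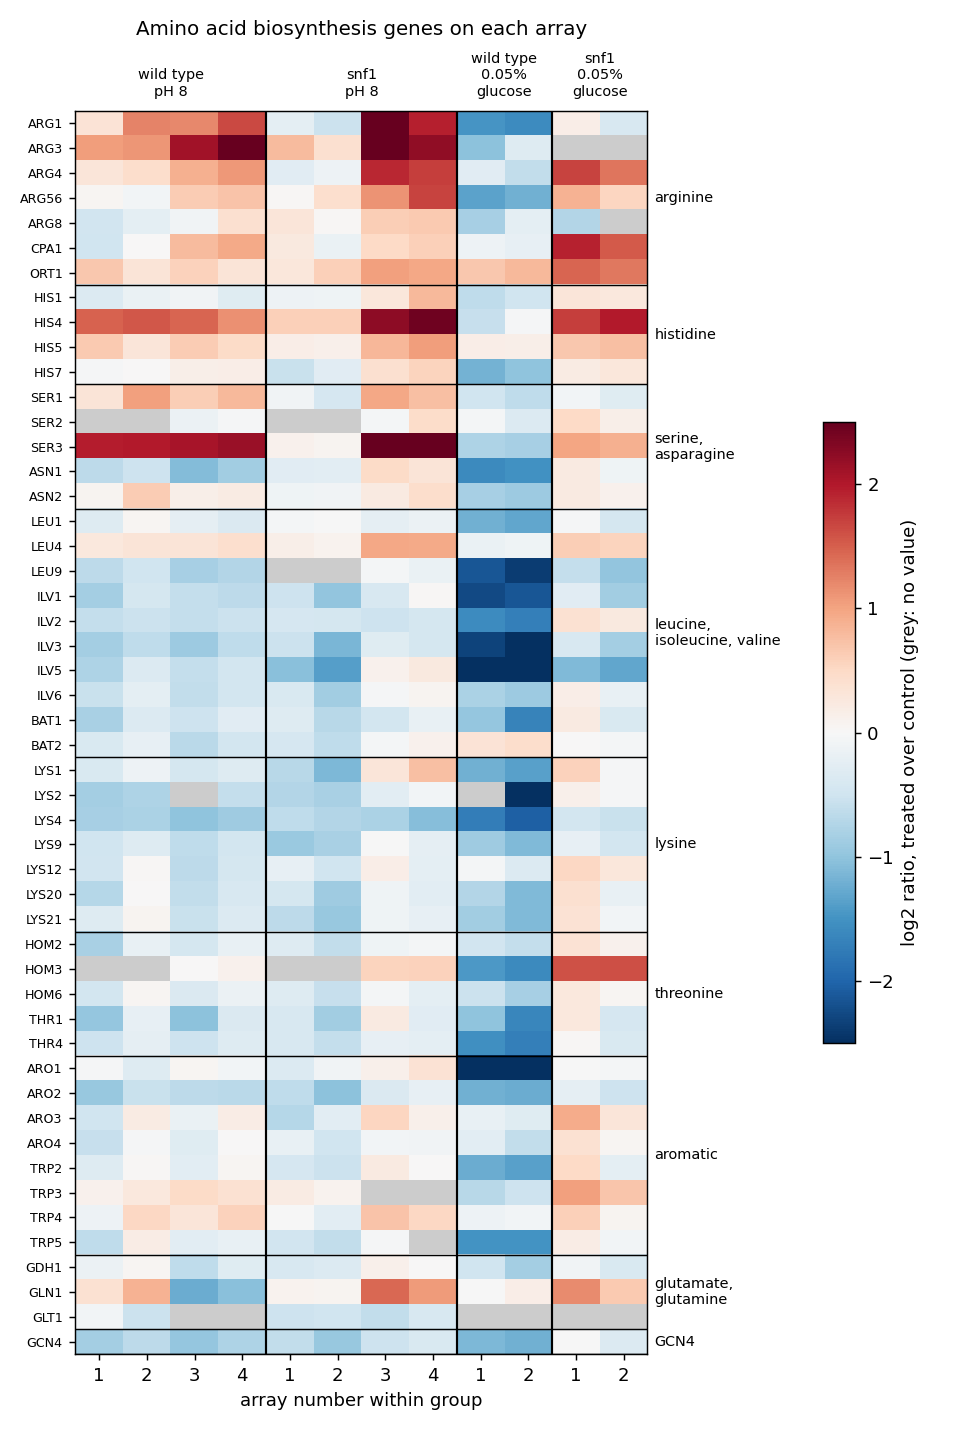
Log2 ratio of treated over control RNA for 50 of the 51 amino acid biosynthesis genes (rows, by pathway) on the 12 arrays (columns, by group and array number). The colour scale ends at -2.5 and 2.5, and grey marks no value. Nearly all genes are blue on the 2 wild type low glucose arrays, and in snf1 at pH 8 arrays 3 and 4 are redder than arrays 1 and 2.

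In wild type cells at alkaline pH the pathways moved in different directions. Genes for arginine, histidine and serine included the strongest increases, while genes for leucine, isoleucine and valine, for lysine and for threonine were lower. Of 48 genes tested, 8 were called higher and 18 lower, where 25.6% and 30.0% of all 4979 genes tested were called higher and lower. The median over the 48 genes was -0.23, against -0.05 over all genes tested. Calls in either direction made up 26 of 48 genes, close to the background of 55.6%, and they were spread unevenly over the pathways. Called higher were 3 of 8 genes for arginine, 2 of 4 for histidine, 2 of 4 for serine and asparagine, 1 of 8 aromatic genes and 0 of 21 for the branched-chain amino acids, lysine and threonine. Called lower were 7 of 10 branched-chain genes, 5 of 7 for lysine, 3 of 4 for threonine, 1 of 8 aromatic genes, ASN1 and GCN4, and 0 of 12 genes for arginine and histidine.

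The serine gene SER3 (YER081W), which encodes the dehydrogenase of the first step from 3-phosphoglycerate, rose most of the 48 genes. Its values in wild type were 1.97, 1.99, 2.06 and 2.16, a mean of 2.04 ± 0.09 (SD, n = 4) or 4.13-fold (adjusted p = 0.000991). The 4 arrays lay close together and far above 0. SER1 (YOR184W), the aminotransferase of the next step, gave 0.33, 1.02, 0.61 and 0.82 and was called higher at 0.69 ± 0.19 (adjusted p = 0.00992), a call that was lost without array 2. SER2 (YGR208W), the phosphatase of the last step, had values on arrays 3 and 4 alone, -0.14 and -0.03, and was not tested.

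In histidine synthesis, HIS4 (YCL030C), whose protein carries out several steps of the pathway, gave 1.48, 1.54, 1.46 and 1.15 in wild type, a mean of 1.41 ± 0.18 (SD, n = 4) or 2.66-fold (adjusted p = 0.00112). HIS5 (YIL116W), the histidinol-phosphate aminotransferase, gave 0.65, 0.30, 0.63 and 0.47 and was called higher at 0.51 ± 0.15 (adjusted p = 0.0111). Both genes were above 0 on all 4 arrays, and HIS4 was higher than HIS5 on each. HIS1 (YER055C), the phosphoribosyltransferase of the first step, gave -0.34, -0.17, -0.09 and -0.31, and HIS7 (YBR248C), which closes the imidazole ring, gave -0.03, 0.00, 0.15 and 0.17, and neither passed the test.

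In arginine synthesis the genes of the last steps, from ornithine onward, had the highest ratios. ARG3 (YJL088W), ornithine carbamoyltransferase, gave 1.04, 1.11, 2.09 and 2.60 in wild type, a mean of 1.71 ± 0.76 (SD, n = 4) or 3.27-fold (adjusted p = 0.0024). ARG1 (YOL058W), argininosuccinate synthetase, gave 0.34, 1.25, 1.21 and 1.65, with a mean of 1.11 ± 0.55 (SD, n = 4) and an adjusted p of 0.0426, a call that was lost without array 2, 3 or 4. ORT1 (YOR130C), which carries ornithine out of mitochondria, gave 0.68, 0.32, 0.57 and 0.32 and was called at 0.47 ± 0.12 (adjusted p = 0.00573). All 3 genes were above 0 on every array. ARG4 (YHR018C), the lyase that releases arginine, was above 0 on every array too, at 0.31, 0.44, 0.89 and 1.08, but did not pass the test (adjusted p = 0.0918). CPA1 (YOR303W), a subunit of carbamoyl phosphate synthetase, varied between arrays, at -0.50, 0.00, 0.80 and 0.95. ARG56 (YER069W), for 2 early steps in mitochondria, gave 0.04, -0.06, 0.63 and 0.71, and ARG8 (YOL140W), the acetylornithine aminotransferase, -0.47, -0.25, -0.09 and 0.41. For 6 of the 8 arginine genes both later arrays lay above both earlier ones, and for 0 below, where 22.4% and 17.7% of all genes did so.

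Genes for leucine, isoleucine and valine were lower in wild type at alkaline pH, with 7 of 10 called and a median of -0.52. ILV3 (YJR016C), the dihydroxyacid dehydratase shared by the isoleucine and valine branches, gave -0.85, -0.64, -0.91 and -0.64, a mean of -0.76 ± 0.14 (SD, n = 4) (adjusted p = 0.00019). ILV2 (YMR108W), the catalytic subunit of acetolactate synthase, had the smallest SD of the 10 genes, with -0.59, -0.53, -0.59 and -0.53 (adjusted p = 7.27e-05). ILV6 (YCL009C), the regulatory subunit of the same enzyme, gave -0.55, -0.24, -0.62 and -0.46 (adjusted p = 0.00884). These 3 genes were below 0 on every array. The other called genes were LEU9 (YOR108W) at -0.68, ILV1 (YER086W), the threonine deaminase that opens the isoleucine branch, at -0.64, BAT1 (YHR208W) at -0.49 and BAT2 (YJR148W) at -0.43. The other 3 genes did not pass: ILV5 (YLR355C), the reductoisomerase, at -0.54 (adjusted p = 0.0541), LEU1 (YGL009C), the isopropylmalate isomerase, at -0.21, and LEU4 (YNL104C) at 0.33, the one gene of the 10 with a positive mean.

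All 7 lysine genes had a negative mean in wild type at alkaline pH, and 5 were called lower. LYS4 (YDR234W), homoaconitase, gave -0.84, -0.79, -1.0 and -0.88, a mean of -0.88 ± 0.09 (SD, n = 4) or 1.83-fold lower (adjusted p = 1.56e-05), the smallest p of the 48 genes. LYS2 (YBR115C), the aminoadipate reductase, gave -0.84, -0.77 and -0.59 on arrays 1, 2 and 4 and no value on array 3 (adjusted p = 0.00211). Both stayed below -0.5 wherever they were measured. LYS9 (YNR050C), LYS20 (YDL182W) and LYS12 (YIL094C) were called at -0.47, -0.43 and -0.38, and each call was lost without array 4, and LYS9 and LYS12 also without array 3 and LYS20 and LYS12 without array 1. LYS1 (YIR034C), for the last step, was at -0.32 ± 0.23 (adjusted p = 0.259).

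On the route from aspartate to threonine, THR1 (YHR025W), the homoserine kinase, gave -0.98, -0.20, -1.02 and -0.36, HOM2 (YDR158W), the semialdehyde dehydrogenase, -0.81, -0.19, -0.43 and -0.19, and THR4 (YCR053W), threonine synthase, -0.51, -0.23, -0.51 and -0.32. All 3 were below 0 on every array and were called lower, at adjusted p-values of 0.00564, 0.00792 and 0.00335. On arrays 1 and 3, where the treated RNA carried Cy3, THR1 was lower than on the others, a difference that the dye term of the fit takes up. HOM6 (YJR139C), the homoserine dehydrogenase, was at -0.23 (adjusted p = 0.0726). HOM3 (YER052C), the aspartate kinase of the first step, had values on 2 arrays only, 0.00 and 0.10, and was not tested.

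The aromatic genes hardly moved as a group at alkaline pH, with a median of -0.11 in wild type. ARO2 (YGL148W), chorismate synthase at the end of the common pathway, gave -0.94, -0.56, -0.65 and -0.67 and was lower at -0.70 ± 0.12 (adjusted p = 0.000359). TRP3 (YKL211C), a subunit of anthranilate synthase, gave 0.10, 0.27, 0.48 and 0.39 and was called higher (adjusted p = 0.0266), a call that was lost without array 3 or 4. The other 6 genes ran from -0.23 for ARO4 (YBR249C) to 0.32 for TRP4 (YDR354W) and were not called. ARO1 (YDR127W), the long enzyme of the central steps, was at -0.09.

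ASN1 (YPR145W) and ASN2 (YGR124W) encode the asparagine synthetases. ASN1 gave -0.65, -0.53, -1.08 and -0.87 in wild type at alkaline pH and was lower at -0.78 ± 0.14 (adjusted p = 0.000658), while ASN2 gave 0.07, 0.63, 0.14 and 0.20 (adjusted p = 0.0645). The arrays of the 2 genes did not overlap. GLN1 (YPR035W), glutamine synthetase, split between the pairs of wild type arrays: 0.39, 0.86, -1.25 and -1.04, a mean of -0.26 ± 1.04 (SD, n = 4) that did not pass the test. GDH1 (YOR375C), the NADP-dependent glutamate dehydrogenase, was at -0.25 (adjusted p = 0.11), and GLT1 (YDL171C), glutamate synthase, had 2 values, -0.06 and -0.54. GCN4 (YEL009C) RNA itself was lower on all 4 arrays, at -0.84, -0.66, -0.96 and -0.77, a mean of -0.81 ± 0.13 (SD, n = 4) or 1.75-fold lower (adjusted p = 2.36e-05). RNA of GCN4 does not report the amount of Gcn4 protein.

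Of the 26 calls in wild type at alkaline pH, 12 held in every alternative setting in which the gene could be tested: SER3, HIS4, ARO2, ASN1, BAT1, GCN4, ILV1, ILV2, ILV3, LEU9, LYS2 and LYS4. LYS2, with no value on array 3, could be tested in 12 of 15 settings and the other 11 genes in all 15. Without arrays 3 and 4 the calls fell to 13, with 2 higher and 11 lower, against 16.1% and 20.8% of all genes.

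In snf1 cells at alkaline pH the genes with the highest fitted ratios were again ARG3, HIS4, SER3 and ARG1, and those with the lowest LYS4 and GCN4, but the 2 pairs of arrays gave different pictures. With all 4 arrays, 7 of 47 genes tested were called higher and 14 lower, against 21.7% and 26.2%, or 48.0% in either direction, of all 4591 genes tested. The median was -0.18, against -0.04 over all genes. Without arrays 1 and 2 the count was 17 higher and 3 lower of 49, where 14.1% and 16.3% of all genes tested were called higher and lower. Without arrays 3 and 4 it was 2 higher and 25 lower of 48, against 20.2% and 25.2%. The direction in which most amino acid genes were called in snf1 thus turned with the pair of arrays.

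In snf1 cells the median gap between the later and the earlier arrays was above 0 in every pathway. For 40 of the 46 genes with a value on all 4 snf1 arrays, or 87.0%, arrays 3 and 4 were both above arrays 1 and 2, and for 2, LEU1 and LYS4, both were below, where the background over all 4005 genes was 24.1% above and 26.0% below. In wild type the same counts were 9 above and 8 below of 47. The median gap, later mean minus earlier mean, was 0.60 over the 46 genes in snf1 and 0.02 over the 47 in wild type. Gaps over 1 were seen in 11 of the 46 genes (23.9%) and in 4.24% of all genes. By pathway the median gap in snf1 was 1.31 for arginine, 0.89 for serine and asparagine, 0.85 for histidine, 0.60 for lysine, 0.57 for the aromatic genes, 0.56 for the branched-chain genes, 0.44 for glutamate and glutamine and 0.35 for threonine. All 8 arginine, 4 histidine, 6 aromatic and 4 threonine genes with a full set of values were higher on both later arrays. Each pair holds both dye orientations once, and array 1 is the one whose genotype field reads snf11::KanMX. A cause of the split was not tested. The treated RNA carried Cy5 on array 1 and Cy3 on array 2, then Cy3 on array 3 and Cy5 on array 4.

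**Figure D2:**
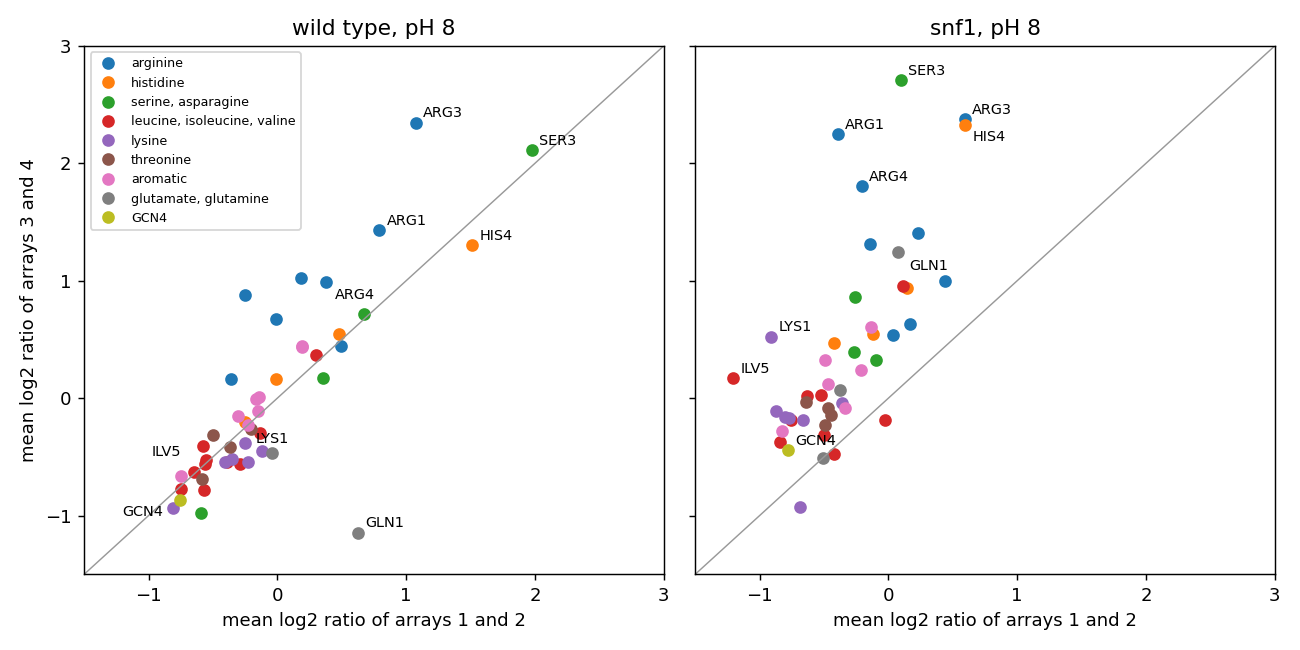
Mean log2 ratio of alkaline pH arrays 1 and 2 (x axis) against that of arrays 3 and 4 (y axis) for the amino acid biosynthesis genes with 4 values, coloured by pathway, in wild type (left, 47 genes) and snf1 (right, 46 genes). The grey line marks equal values. In wild type most genes lie near the line, with GLN1 below it, and in snf1 40 of 46 genes lie above it on both later arrays.

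SER3 showed the split most plainly. Its snf1 values were 0.11, 0.08, 2.70 and 2.72, so that it stood near 0 on arrays 1 and 2 and above every wild type array on arrays 3 and 4. ARG1 gave -0.25, -0.54, 2.56 and 1.94, ARG4 -0.27, -0.14, 1.88 and 1.73, and HIS4 0.59, 0.60, 2.23 and 2.43. For these 4 genes arrays 1 and 2 lay below all wild type arrays and arrays 3 and 4 above all of them. LYS1 gave -0.69, -1.13, 0.30 and 0.74 and ILV5 -1.04, -1.38, 0.10 and 0.24, both from well below 0 to above 0. GLN1 gave 0.08, 0.07, 1.43 and 1.06 in snf1, opposite to its split in wild type.

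In snf1 at alkaline pH, 5 genes kept their call in every alternative setting, those without either pair included. HIS4 had a mean of 1.46 ± 1.01 (SD, n = 4) (adjusted p = 0.00104). ORT1 gave 0.28, 0.59, 1.03 and 0.97 (adjusted p = 0.000447). LYS4 gave -0.64, -0.73, -0.79 and -1.07 (adjusted p = 4.19e-05). All 4 arrays were above 0 for HIS4 and ORT1 and below 0 for LYS4. ILV2 gave -0.41, -0.44, -0.51 and -0.44 (adjusted p = 0.000479), nearly the same on all 4 arrays. GCN4 gave -0.62, -0.95, -0.51 and -0.37, a mean of -0.61 ± 0.25 (SD, n = 4) (adjusted p = 0.000254). Its RNA was below 0 on every array of both genotypes.

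The other 16 calls in snf1 at alkaline pH were each lost in at least 1 alternative setting. SER3 at 1.40, ARG56 at 0.82, HIS5 at 0.54 and LEU4 at 0.54 were called higher, and each was lost without array 3 or without array 4. ILV1 at -0.47 and the lysine genes LYS2 at -0.47, LYS9 at -0.49, LYS20 at -0.43 and LYS21 (YDL131W) at -0.48 were called lower, and each was lost without array 1 or without array 2. HOM6 at -0.30 was lost without array 1, 2 or 4. ARG3 was called higher at 1.49 ± 0.36 with values of 0.79, 0.40, 2.54 and 2.21, and lost only without the later pair or with consecutive arrays averaged. ARO2, BAT1, GLT1, ILV3 and THR4 were called lower but not without the earlier pair, at -0.55, -0.41, -0.51, -0.61 and -0.36. GLT1 gave -0.52, -0.50, -0.62 and -0.41 and, unlike in wild type, had all 4 values. The call of this longest gene was also lost after the loess correction for coding length, at -0.26 (adjusted p = 0.0804). LEU9, HOM3, SER2 and TRP3 had 2 values each in snf1 and were not tested.

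No amino acid gene was called different between the genotypes at alkaline pH. By limma, 0 of 46 genes passed, where 1.16% of all 4380 genes tested did, and 2 had an unadjusted p under 0.05. These were ASN1, whose difference of snf1 minus wild type was 0.85 with a 95% interval of 0.41 to 1.28 (adjusted p = 0.0651), and HIS1, at 0.44 with 0.01 to 0.87 (adjusted p = 0.297). ASN1 gave -0.28, -0.26, 0.47 and 0.32 in snf1, and all 4 lay above all 4 wild type values. For genes that split between the pairs the intervals were wide: the difference for SER3 was -0.64 (-1.86 to 0.57), for ARG1 -0.18 (-1.5 to 1.13) and for GLN1 0.92 (-0.10 to 1.95). For GCN4 it was 0.20 (-0.09 to 0.49) and for ILV2 0.11 (-0.12 to 0.34). A p above the threshold does not show that the genotypes responded alike.

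Each pair of snf1 arrays on its own gave calls, and in opposite directions. Without arrays 3 and 4, 7 of 47 genes were lower in snf1 than in wild type, where 3.77% of all genes tested were called lower: SER3 by -1.95, ARG1 by -1.5, SER1 by -0.96, ARG4 by -0.89, HIS4 by -0.81, ILV5 by -0.67 and LYS1 by -0.59. Without arrays 1 and 2, 4 of 46 were higher, against 0.378% of all genes: ASN1 by 1.18, ARG4 by 1.12, HIS4 by 0.92 and LYS1 by 0.84. ARG4, HIS4 and LYS1 were thus called in both and with opposite signs. Without wild type arrays 1 and 2, GLN1 was called at 1.81, where 1.22% of all genes were called higher, and without wild type arrays 3 and 4 no gene was called.

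At low glucose most amino acid biosynthesis genes fell in wild type cells. Of 49 genes tested, 33 were called lower and 1 higher, where 31.5% and 33.7% of all 5225 genes tested were called lower and higher and 65.2% in either direction. The median was -0.92, against 0.05 over all genes. Lower calls were made for 8 of 10 branched-chain genes, 5 of 5 for threonine, 5 of 6 for lysine, 6 of 8 aromatic genes, 2 of 5 for serine and asparagine, 3 of 8 for arginine, 2 of 4 for histidine, GDH1 and GCN4. Arginine and histidine had the median ratios nearest to 0 among those with at least 4 genes, at -0.61 and -0.44, and the branched-chain genes the lowest, at -1.47.

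The strongest fall was that of ILV5, the reductoisomerase of the branched-chain pathway, with -3.02 and -2.98 on the 2 arrays, a mean of -3.0 ± 0.03 (SD, n = 2) or 8.00-fold lower (adjusted p = 6.45e-06). ILV3 gave -2.32 and -2.60, LEU9 -2.14 and -2.37, ILV1 -2.25 and -2.13 and ILV2 -1.57 and -1.70. Each of these lay below -1.5 on both arrays, with adjusted p-values between 2.23e-07 and 1.54e-06 for the last 4. BAT1 gave -0.96 and -1.66, LEU1 -1.19 and -1.30 and ILV6 -0.79 and -0.91, and all 3 were called lower. The genes that did not pass were LEU4, at -0.16 and -0.11, and BAT2, at 0.34 and 0.45 (adjusted p = 0.0624), each with an isozyme that fell.

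For threonine, THR4 gave -1.54 and -1.70, HOM3 -1.43 and -1.60 and THR1 -1.01 and -1.64, and HOM6 and HOM2 followed with -0.54 and -0.82 and -0.48 and -0.60. All 5 genes were below 0 on both arrays and were called lower, and the call of HOM2 was lost without either array. For lysine, LYS4 gave -1.72 and -2.04, LYS1 -1.20 and -1.35, LYS9 -0.90 and -1.10, LYS21 -0.88 and -1.10 and LYS20 -0.73 and -1.11, all called lower. LYS12, the homoisocitrate dehydrogenase, gave -0.05 and -0.35 and did not pass. LYS2 had a single value, -2.86, and was not tested.

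Among the aromatic genes ARO1 fell most, with -2.60 and -2.89, a mean of -2.74 ± 0.21 (SD, n = 2) or 6.70-fold lower (adjusted p = 1.51e-07). TRP5 (YGL026C), tryptophan synthase, gave -1.49 and -1.5, TRP2 (YER090W), the other subunit of anthranilate synthase, -1.23 and -1.36, and ARO2 -1.20 and -1.25. These lay below -1.19 on both arrays. TRP3 and ARO4 were called lower at -0.69 and -0.52 and at -0.26 and -0.62, and ARO3 (YDR035W) and TRP4, at -0.18 and -0.30 and at -0.13 and -0.07, were not.

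In arginine synthesis the low glucose response of wild type was divided. ARG1 gave -1.48 and -1.57 and ARG56 -1.33 and -1.20, both called lower. The call of ARG56 was lost without array 1 and that of ARG1 without either array. ORT1 gave 0.67 and 0.81 and was the one gene of the 49 called higher, at 0.74 ± 0.17 (adjusted p = 0.0023), a call that was lost with arrays scaled to one spread. ARG3, ARG4, ARG8 and CPA1 had negative means, -0.68, -0.44, -0.54 and -0.16, and did not pass. CPA1 gave -0.13 and -0.20. In histidine synthesis HIS7 gave -1.19 and -1.01 and HIS1 -0.64 and -0.50, both called lower, while HIS4 gave -0.58 and -0.03 and HIS5 0.17 and 0.15, which did not pass.

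ASN1 gave -1.60 and -1.51 and ASN2 -0.82 and -0.91 at low glucose, both called lower. SER3 gave -0.78 and -0.83, below 0 on both arrays, but was not called (adjusted p = 0.221). The fit takes a gene's spread from all 12 arrays, those of snf1 at alkaline pH included, and gave SER3 a standard error of 0.55. ARG3 gave -1.04 and -0.32, with a standard error of 0.51 (adjusted p = 0.268). GDH1 was lower at -0.50 and -0.86, GLN1 gave -0.01 and 0.16, and GLT1 had no value. GCN4 RNA gave -1.12 and -1.21 and was lower at -1.17 ± 0.13 (adjusted p = 1.38e-05). Of the 34 calls in wild type at low glucose, 24 held in every alternative setting, GCN4, ASN1 and ASN2 among them.

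On the 2 wild type low glucose arrays, and on no other array to this degree, the ratio depended on the length of the coding sequence. Per doubling of length it fell by 0.53 and 0.50 over 5015 and 4958 genes, with Pearson coefficients of -0.44 and -0.39. On the snf1 low glucose arrays the slopes were -0.07 and -0.02, and on the 8 alkaline pH arrays they ran from -0.14 to 0.08. The amino acid genes had a median coding length of 1323 bases, from 846 for GCN4 to 6438 for GLT1, against 1236 bases over 5335 genes. Within these genes the slopes on the wild type arrays were -0.84 on both, over 49 and 50 genes. These slopes describe genes of the same arrays and carry no test. What the dependence on length comes from was not tested.

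**Figure D3:**
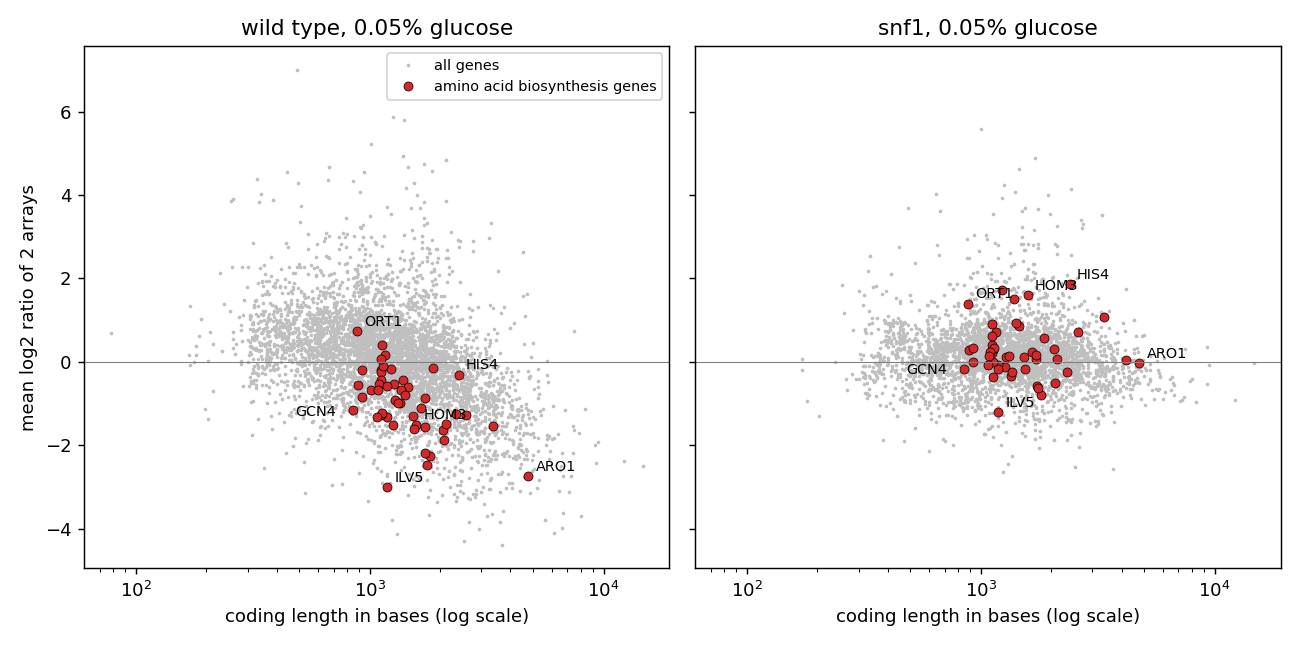
Mean log2 ratio of 0.05% over 2% glucose on the 2 arrays of a genotype (y axis) against coding length in bases (x axis, log scale) in wild type (left) and snf1 (right). Grey points are all genes and red points the amino acid biosynthesis genes. In wild type long genes are lower, with ARO1 at -2.74, while ILV5, at 1188 bases, is lower still at -3.0.

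The low calls of wild type at low glucose were largely kept when length was taken into account. After a linear correction for length on each array, 30 of the 49 genes were lower and 1 higher, with a median of -0.73, and after a loess correction 32 were lower and 1 higher, with a median of -0.82. ILV5, with 1188 bases, was at -2.95 after the linear correction (adjusted p = 7.21e-06). ILV3 was at -2.12, LEU9 at -1.89 and GCN4, the shortest of the 51 genes, at -1.37. For ARO1, with 4767 bases, the linear correction moved the value from -2.74 to -1.66 and the loess correction to -1.09 (adjusted p = 2.34e-05). For ARG56, with 2592 bases, they moved it from -1.27 to -0.64 (adjusted p = 0.0911) and -0.49 (adjusted p = 0.188). With arrays scaled to one spread, 25 genes were lower and 0 higher, where 40.6% of all genes were called.

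In snf1 cells at low glucose the general fall was not seen. Of 48 genes tested, 10 were called higher and 5 lower, where 28.9% and 16.9% of all 3703 genes tested were called higher and lower and 45.8% in either direction. Both shares were under the background. The median was 0.15, against 0.12 over all genes. Higher calls were made for 4 of 6 arginine genes, HIS4 and HIS5, LEU4 and ILV2, TRP3 and HOM3. Lower calls were made for ILV5, LEU9, ILV3, ILV1 and LYS4. With arrays scaled to one spread the split was 5 higher and 6 lower, against 23.1% and 18.4% of all genes.

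HIS4 gave 1.73 and 1.98 in snf1 at low glucose, a mean of 1.85 ± 0.17 (SD, n = 2) or 3.62-fold (adjusted p = 0.00244). CPA1 gave 1.93 and 1.53 (adjusted p = 0.000546), HOM3 1.58 and 1.60 (adjusted p = 7.42e-05) and ORT1 1.46 and 1.32 (adjusted p = 7.52e-05). CPA1, HOM3 and ORT1 were the 3 genes whose call held in every setting. ARG4 gave 1.69 and 1.34, TRP3 1.03 and 0.69, HIS5 0.68 and 0.75, LEU4 0.62 and 0.55 and ILV2 0.38 and 0.24, and these were above 0 on both arrays. ILV5 gave -1.11 and -1.30, LEU9 -0.60 and -0.98, ILV3 -0.40 and -0.86, ILV1 -0.29 and -0.86 and LYS4 -0.45 and -0.55, below 0 on both. GCN4 gave -0.01 and -0.33 and did not pass (adjusted p = 0.31). Without either of the 2 snf1 arrays, 4 calls were left in place of 15, and HIS4 was among those lost. Of all genes tested, 20.1% were called without array 1 and 25.2% without array 2. ARG3 had no value in snf1 at low glucose, and ARG8 had one, -0.74.

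The genotypes differed at low glucose in most of these genes, and in one direction. The ratio was higher in snf1 than in wild type for 34 of 47 genes and lower for 0, where 27.6% and 13.0% of all 3651 genes tested were called higher and lower and 40.6% in either direction. The median difference was 1.24, against 0.18 over all genes. Called were 8 of 10 branched-chain genes, 5 of 5 for threonine, 6 of 8 aromatic genes, 5 of 6 for arginine, 4 of 6 for lysine, 3 of 4 for histidine, ASN1 and ASN2, and GCN4. BAT2, at -0.41 with a 95% interval of -0.94 to 0.12, was the one gene with a negative difference.

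**Figure D4:**
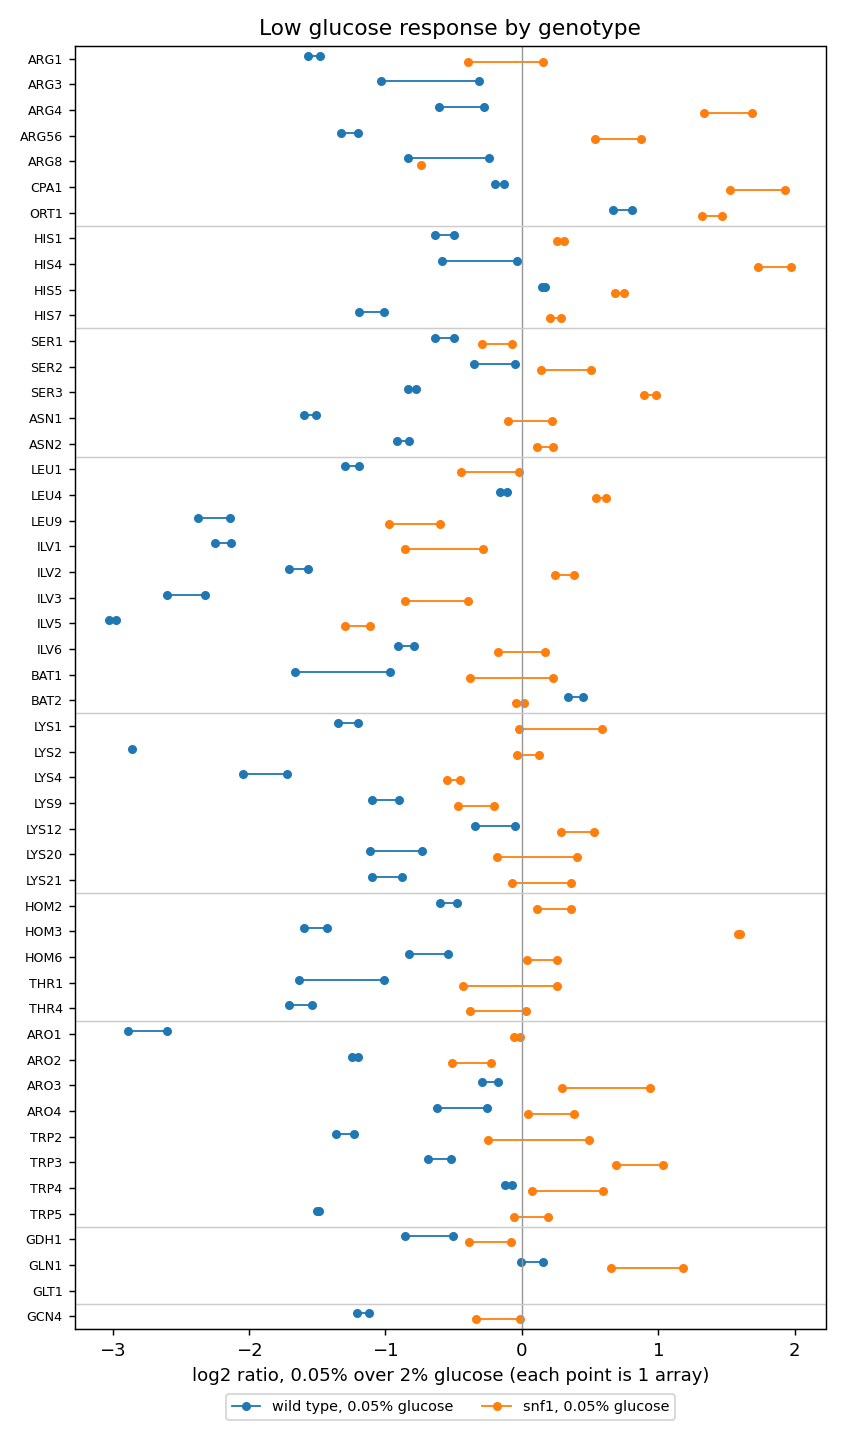
Log2 ratio of 0.05% over 2% glucose for 50 of the 51 amino acid biosynthesis genes (rows, by pathway) on each array of wild type (blue) and snf1 (orange), with a line joining the 2 arrays of a genotype. For most genes the orange points lie to the right of the blue ones, from HOM3 with a difference of 3.10 to BAT2, where the order is turned.

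Behind the difference lay a fall in wild type, a rise in snf1 or both. For HOM3, aspartate kinase, wild type arrays gave -1.43 and -1.60 and snf1 arrays 1.58 and 1.60, a difference of 3.10 ± 0.19 or 8.60-fold (adjusted p = 3.06e-05). For ARO1 the wild type values were low and the snf1 values, -0.02 and -0.06, near 0, a difference of 2.71 ± 0.24 (adjusted p = 2.20e-05). For HIS4 the wild type arrays gave -0.58 and -0.03 and the snf1 arrays 1.73 and 1.98, a difference of 2.16 ± 0.55 (adjusted p = 0.00847). This call was lost without wild type array 1 or without snf1 array 2. ARG56, at 0.87 and 0.54 in snf1, differed by 1.97, ARG4 by 1.95, CPA1 by 1.89 and ORT1, called higher in both genotypes, by 0.65. The calls of ARG4 and ORT1 were lost without any one low glucose array, and that of ARG56 without snf1 array 1. ARG1 gave 0.16 and -0.40 in snf1 and its difference of 1.40 had an interval of -0.45 to 3.26.

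Among the branched-chain genes ILV2 had the smallest p of all 47, with a difference of 1.95 ± 0.15 (adjusted p = 1.43e-05). ILV3, ILV5, ILV1 and LEU9 fell in both genotypes, and less in snf1, by 1.83, 1.79, 1.62 and 1.47. BAT1, at 0.23 and -0.38 in snf1, differed by 1.24, LEU1, at -0.02 and -0.45, by 1.01, and ILV6, at 0.17 and -0.18, by 0.85. LEU4 differed by 0.72 and did not pass (adjusted p = 0.0686).

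The lysine genes called were LYS1, at 0.58 and -0.02 in snf1 and a difference of 1.56, LYS4 at 1.38, LYS21, at 0.36 and -0.07 in snf1, at 1.13, and LYS20, at 0.41 and -0.18, at 1.03. Their snf1 values lay on both sides of 0, apart from those of LYS4. LYS9 and LYS12 differed by 0.66 and 0.60 and did not pass. For threonine, THR4 gave 0.03 and -0.38 in snf1 and a difference of 1.44, THR1 0.26 and -0.43 and 1.24, HOM6 0.26 and 0.04 and 0.83, and HOM2 0.36 and 0.11 and 0.78.

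Of the aromatic genes, TRP5 gave 0.19 and -0.06 in snf1 and a difference of 1.56, TRP2 0.49 and -0.25 and 1.42, ARO2 -0.22 and -0.52 and 0.85, and ARO4 0.38 and 0.05 and 0.65. TRP3 differed by 1.47. ARO3 and TRP4 differed by 0.85 and 0.43 and did not pass. The arrays of the 2 genotypes did not overlap for any of these genes. The share of all genes without overlap was not computed, so this adds no support to ARO3 and TRP4. HIS7 gave 0.20 and 0.29 in snf1 and a difference of 1.35, and HIS1 0.31 and 0.26 and 0.85. ASN1 gave 0.22 and -0.10 and a difference of 1.61, and ASN2 0.23 and 0.11 and 1.04. GCN4 RNA differed by 0.99 ± 0.19 (adjusted p = 0.00156). SER3, at 0.99 and 0.89 in snf1, had a large difference of 1.74 with an interval of 0.03 to 3.46, which did not pass (adjusted p = 0.0965).

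The dependence on length was present in the wild type and near 0 in snf1, so it enters this difference too. After the linear and the loess correction 32 and 34 genes were called higher and 0 lower, with medians of 1.03 and 1.08. Of all genes tested, 20.3% and 21.4% were called higher after these corrections. The difference for the long gene ARO1 moved from 2.71 to 1.67 and 1.42, and that for ARG56 from 1.97 to 1.35 and 1.28. LEU1 moved from 1.01 to 0.46 (adjusted p = 0.103) and 0.43 (adjusted p = 0.126), and its call was lost in both. The call of ARG4 was lost after the linear and that of HIS4 after the loess correction. HOM3 was at 2.82 and 2.91. With arrays scaled to one spread, 8 genes were called, all higher, with a median of 0.68, where 12.8% of all genes were called. These were HOM3, CPA1, ARO1, ILV2, TRP3, ILV3, THR4 and BAT1, and 7 of them, all but CPA1, held in every setting. Without snf1 array 1 the count was 22, where 25.6% of all genes were called. Without any of the other low glucose arrays it was 25 or 26, where 26.3% to 30.9% were.

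In wild type cells the response to alkaline pH lay above that to low glucose in most of these genes. The difference, alkaline pH minus low glucose, was positive and called for 24 of 47 genes and negative and called for 1, where 20.9% and 24.3% of all 4825 genes tested were called in these directions and 45.1% in either. The median was 0.82, against -0.14 over all genes. The experiments differed in strain, time and medium change, and the parts these have in the difference cannot be told apart. Large differences were those of SER3 at 2.85, ARO1 at 2.65, ARG1 at 2.64, ILV5 at 2.46 and ARG3 at 2.39. BAT2, at -0.82 ± 0.21 (adjusted p = 0.00916), was the gene called the other way, and its call was lost without wild type low glucose array 2, without wild type alkaline pH arrays 3 and 4, with arrays scaled to one spread and with consecutive arrays averaged. All 4 genes tested for serine and asparagine were called, of which ASN2 alone held in every setting. The calls of SER1, SER3 and ARG1 were lost without either wild type low glucose array, and that of ARG3 without array 1. Called in the positive direction were also 7 of 10 branched-chain genes, 4 of 8 for arginine and 4 of 8 aromatic genes. For histidine it was 2 of 4, for lysine 2 of 6 and for threonine 1 of 4. GCN4 was at 0.36 and was not called (adjusted p = 0.0928).

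**Figure D5:**
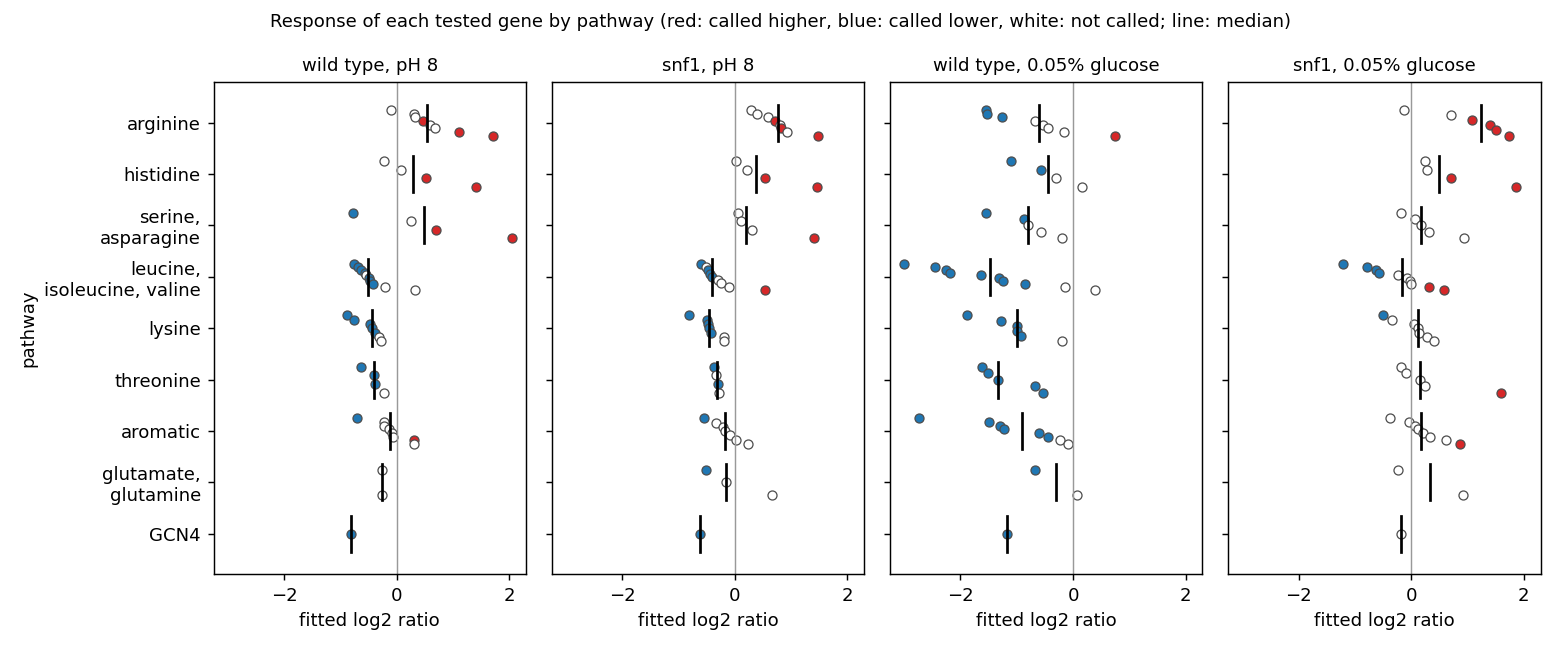
Fitted log2 ratio (x axis) of each tested amino acid biosynthesis gene by pathway (rows) in the 4 groups (panels). Red points were called higher, blue points lower and white points neither, and the black line is the pathway's median. Arginine has medians of 0.54 and 0.76 at pH 8 and of -0.61 and 1.24 at low glucose in wild type and snf1.

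The count of differences between the stresses depended on the setting. It was 16, in place of 25, without either wild type low glucose array, 9 with arrays scaled to one spread and 11 with consecutive arrays averaged. The share of all genes called fell as well, from 45.1% to 22.6% and 20.2% without array 1 or 2. It was 12.9% with scaling and 15.1% with averaging. Held in every setting were ARO1, ASN2, ILV2, ILV3, ILV5, LEU9 and THR4. For ARO1 the linear and loess corrections for length moved the difference from 2.65 to 1.54 and 1.08. The call of ASN1 was lost after both corrections (adjusted p = 0.234 and 0.124), and also without any one of 4 arrays, wild type arrays 1 and 2 of either stress. The calls of ARG56, HIS4 and LEU1 were lost after both corrections too.

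Isozymes of one step did not always move together. The homocitrate synthases LYS20 and LYS21 stayed within 0.15 of each other on average in each of the 4 groups. The isopropylmalate synthases LEU4 and LEU9 differed in every group where both were measured: LEU4 was higher by 1.01 ± 0.17 (SD, n = 4) in wild type at alkaline pH, by 1.07 ± 0.07 (n = 2) in snf1 at alkaline pH, by 2.12 ± 0.20 (n = 2) in wild type at low glucose and by 1.37 ± 0.22 (n = 2) in snf1 at low glucose. LEU4 was above LEU9 on all 10 arrays with both values. BAT1, the mitochondrial branched-chain aminotransferase, and BAT2, the cytosolic one, differed by less than their spread at alkaline pH, with BAT1 minus BAT2 at -0.06 ± 0.28 in wild type, but BAT1 was lower by 2.11 and 1.30 on the wild type low glucose arrays. ASN1 lay below ASN2 by 1.22 to 0.72 on the 4 wild type alkaline pH arrays and by 0.78 and 0.59 on the wild type low glucose arrays, and within 0.26 of it in either direction on the snf1 arrays. ARO3 and ARO4, which start the aromatic pathway, differed by 0.16 ± 0.07 (n = 4) in wild type at alkaline pH. These are differences of log2 ratios and carry no test. Genes of similar sequence may share signal on spotted probes, and probe sequences were not analysed here.

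Other genes of amino acid synthesis and its control were read from lists chosen by name. Of 25 other synthesis genes tested in wild type at alkaline pH, 9 were higher and 9 lower, against 25.6% and 30.0% of all genes. At low glucose 7 were higher and 13 lower, against 33.7% and 31.5% of all genes. The transaminase genes moved apart at alkaline pH, with ALT1, alanine transaminase, at 1.53, 2.07, 1.14 and 1.38 and AAT1, the mitochondrial aspartate aminotransferase, at -1.31, -1.55, -1.46 and -1.98. At low glucose LEU2, the isopropylmalate dehydrogenase, rose in both genotypes, to 1.44 and 1.48 in wild type and 1.72 and 1.55 in snf1, the opposite of LEU1 and LEU9 in wild type. The labels do not say whether these strains carry LEU2 on the chromosome or as a marker. Of 16 regulator genes, 9 were lower and 2 higher in wild type at low glucose, against 31.5% and 33.7% of all genes. These counts are without a correction for coding length, on arrays where long genes were lower. The regulators that fell most, GCN1, LEU3, GCN2, BAS1 and GCN20, have 8019, 2661, 4980, 2436 and 2259 bases. The median over all genes with a length was 1236 bases. RTG1, which came next, has 534 bases. GCN1, a very long gene needed for Gcn2 to act, was at -4.01 and -3.37 and in snf1 at -0.67 and -0.17, and LEU3 was at -2.98 and -2.57. The genes of arginine breakdown were called higher: CAR1, arginase, gave 1.41 and 1.11 and CAR2, ornithine transaminase, 0.65 and 0.46 in wild type at low glucose. PCL5, whose cyclin marks Gcn4 for degradation, gave 0.92, 1.12, 1.96 and 2.23 in wild type at alkaline pH and -0.14, -0.26, 1.32 and 1.39 in snf1. Its later arrays lay above its earlier ones in both genotypes. Of the 13 regulator genes with a value on all 4 snf1 arrays, 5 had both later arrays above both earlier ones and 4 below. Over all genes these shares were 24.1% and 26.0%.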

How the data were processed

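The study measured transcripts of yeast on 12 arrays with 2 dyes, hybridised with cDNA of 8 µg total RNA that was labelled indirectly with oligo(dT) priming, per the labels' protocols. The authors left out spots under 120 µm or under 100 fluorescence units. The deposited values are 1 log ratio per gene and array, taken here as log2, and how the authors normalized them was not stated in the labels or file headers. Array medians ran from -0.065 to 0.112 and were left as they were. Each group holds both dye orientations equally.

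Each gene was fitted with limma 3.58.1 in R 4.3.3 over all 12 arrays, with 4 group means and a dye term. A gene was tested with at least 3 values per alkaline pH group and 2 per low glucose group. P-values are from limma, adjusted by Benjamini-Hochberg over all genes tested. The fit was tested on simulated data. Alternatives were corrections for coding length, arrays scaled to one spread, consecutive arrays averaged or taken as a block, a replicate block, no dye term, arrays centred on the median, only complete values, only one treatment's arrays, and single arrays left out. Leaving out pairs of consecutive arrays was chosen after seeing the data. Lengths came from RefSeq's R64 gene table, which matched 5639 genes.

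The members, lists and tests were chosen with earlier results of these data known. All genes could be named, with each array's values for GCN4, for the strongest call of each pathway, for genes called in a difference and for isozymes, and of other lists at most 6 called genes per comparison. Of the 51 genes, 1 enters the counts and medians but is not reported here by name. Promoter and protein sequences and probe sequences were not analysed here.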

Additional observations from a re-analysis of the deposited data

Results flagged for a closer look

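The 2 results here were flagged because a test of the difference between groups passed for some of the genes. In the first, snf1 minus wild type at low glucose, 34 of 47 amino acid biosynthesis genes were called by limma, all of them higher in snf1. Of all genes tested, 40.6% were called in either direction and 27.6% higher. The range over settings was from 8 genes, where 12.8% of all genes were called, to 43, where 52.9% were.

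In the second, alkaline pH minus low glucose in wild type, 25 of 47 genes (53.2%) were called, 24 of them higher at alkaline pH and 1, BAT2, lower. Of all genes tested, 45.1% were called in either direction, 20.9% higher and 24.3% lower. The share of the 47 genes called in either direction was thus near that of all genes, and nearly all their calls were higher. The strains, times and handling of the cultures also differ between these experiments.

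Groups of 4 alkaline pH values, 1 per gene and genotype, numbered 93. In each, the gap between an end value and its neighbour was divided by the range. This ratio exceeded Dixon's 95% critical value of 0.829 in 0 groups. Groups of 2 arrays were not examined in this way.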

How the results depend on the processing

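The number of amino acid genes called moved by over 1.5 times in these settings, and the cause was not tested. With consecutive arrays averaged, which leaves fewer arrays, it was 13 in place of 26 in wild type at alkaline pH, 7 in place of 21 in snf1 at alkaline pH, 4 in place of 15 in snf1 at low glucose, 14 in place of 34 for the genotype difference at low glucose and 11 in place of 25 between the stresses. The shares of all genes called with averaging were 36.7%, 31.1%, 21.7%, 16.7% and 15.1% in the same order. In the main fit they were 55.6%, 48.0%, 45.8%, 40.6% and 45.1%. Averaging left 1 value per gene in each low glucose group, and the spread then came from the alkaline pH groups alone. With arrays scaled to one spread the counts were 8 for the genotype difference at low glucose and 9 between the stresses. Of all genes, 12.8% and 12.9% were called there. Without wild type arrays 3 and 4 the count in wild type at alkaline pH was 13. For the genotype difference at alkaline pH it was 1 without wild type arrays 1 and 2, 4 without snf1 arrays 1 and 2 and 7 without snf1 arrays 3 and 4, in place of 0. Leaving out 1 array gave 20 to 25 calls in wild type and 18 to 25 in snf1 at alkaline pH, 0 for their difference, 27 to 30 in wild type and 4 in snf1 at low glucose, 22 to 26 for their difference and 16 to 25 between the stresses.

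A sign turned for a gene with a call only where a pair of snf1 arrays was left out. Without arrays 1 and 2, LYS1 in snf1 was 0.52, from -0.19. Without arrays 3 and 4, HIS7 in snf1 was -0.43, and the genotype differences of ARG4, HIS4, ILV5 and LYS1 were -0.89, -0.81, -0.67 and -0.59. With a replicate block the genotype difference had 0 calls at alkaline pH and 43 at low glucose. Of all genes tested, 0.639% and 52.9% were called there. With only the low glucose arrays and no block the share was 52.9% too. At alkaline pH the deviations of arrays with one replicate number correlated at -0.386 to 0.0701. Numbers 1 and 2 carried opposite dyes in the 2 genotypes and dye was not removed, so this cannot show whether the numbers pair the arrays. At low glucose the number is also the dye.

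Over all genes the genotype difference at alkaline pH had 51 calls, and 30 with only those arrays, 28 with the replicate block, 23 with consecutive arrays as a block, 0 with them averaged, 20 to 397 without a pair and 22 to 161 without 1 array. At low glucose it had 1481 calls, 467 scaled, 610 averaged and 962 to 1255 without 1 array. Averaging gave 1665 calls in wild type and 1246 in snf1 at alkaline pH and 803 in snf1 at low glucose. Scaling gave 2123 in wild type at low glucose. Between the stresses there were 622 calls scaled, 673 averaged, 1384 and 1276 after length corrections and 985 to 2238 without 1 array, in place of 2178. Precision is limited by 2 arrays per genotype at low glucose.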
